A study of Mus musculus with 60 samples.

Results

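The 10 genes followed here, of the p53 pathway and the INK4 locus, were measured in liver organoids grown from mouse cholangiocytes, the epithelial cells that line bile ducts. The genes are Trp53 (ENSMUSG00000059552), Mdm2 (ENSMUSG00000020184), Cdkn1a (ENSMUSG00000023067), Cdkn2a (ENSMUSG00000044303), Cdkn2b (ENSMUSG00000073802), Ccng1 (ENSMUSG00000020326), Bax (ENSMUSG00000003873), Bbc3 (ENSMUSG00000002083), Phlda3 (ENSMUSG00000041801) and Gdf15 (ENSMUSG00000038508), chosen by symbol and matched by Ensembl identifier. All 10 were found among the 23440 genes of the table of dome and suspension cultures, the 23068 genes of the bulk passage table and the 28773 genes of the single-organoid table, and all 10 passed the filter on low counts in each. Every group came from C57BL/6N mice given an age of 3-4 months, all male and 3 months old by the study's text. No altered allele or drug was named in any group, and all organoids were kept in HepatiCult medium. The first experiment held 3 organoid pools from 2, 4 and 3 mice (Pools A, B and C), each grown in 30 µl Matrigel domes and in shaking suspension with 10% Matrigel. The second held bulk RNA of Sets 1, 3 and 4 at passages 4 and 11, each set from 1 mouse and each library sequenced as 2 technical replicates, which were summed here. The third held 35 single organoids picked from suspension cultures, 8 of Set 1, 10 of Set 2, 5 of Set 3 and 12 of Set 4. The methods place Set 1 at passage 11, Sets 2 and 3 at passage 3 and Set 4 at passage 4, so mouse and passage cannot be told apart among single organoids. Only organoids without a dark, necrotic lumen were picked, so organoids with much cell death were not sampled.

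p53, the product of Trp53, is a transcription factor that is activated by DNA damage and other stress. Its protein is held low by the ubiquitin ligase Mdm2, itself a p53 target, so that Trp53 mRNA alone does not report p53 activity. Among its targets, Cdkn1a encodes p21, which inhibits cyclin-dependent kinases and halts the cell cycle, Bax and Bbc3 (Puma) act at mitochondria in apoptosis, Ccng1 encodes cyclin G1, Phlda3 encodes an inhibitor of Akt signalling, and Gdf15 encodes a secreted stress cytokine. Cdkn2a encodes p16Ink4a, an inhibitor of Cdk4 and Cdk6, and p19Arf, which blocks Mdm2, and its neighbour Cdkn2b encodes p15Ink4b. Both are used as markers of senescence, a lasting exit from the cell cycle, and Cdkn2a is known to rise when mouse cells are cultured for long.

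The count tables are built on GRCm38, where Trp53 lies at chr11:69580359-69591873 (+), Mdm2 at chr10:117688875-117710758 (-), Cdkn1a at chr17:29090976-29100727 (+), Cdkn2a at chr4:89274471-89294653 (-), Cdkn2b at chr4:89306299-89311039 (-), Ccng1 at chr11:40748552-40755311 (-), Bax at chr7:45461697-45466898 (-), Bbc3 at chr7:16308393-16318205 (+), Phlda3 at chr1:135766119-135769136 (+) and Gdf15 at chr8:70629393-70632456 (-). Bax shares its strand with Gm45808, and Cdkn1a overlaps AC167363.2 on the opposite strand, so their counts could hold reads of these neighbours where counting did not separate them. The libraries read the 3′ end of transcripts, and both Cdkn2a transcripts end in the same exons, so p16Ink4a and p19Arf could not be told apart.

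The p53 half-site, a palindromic consensus of 10 bases, was searched for on both strands in RefSeq promoter windows of GRCm38.p6 that run from 250 bases before to 50 bases after each transcript start. All 10 genes had at least 1 window, 15 windows in all. A half-site without mismatch stood in 5 of the 10 genes (Trp53, Mdm2, Cdkn1a, Ccng1 and Bax), in 9 of 33 matched genes of a list of 40 other p53 targets, and in 9.55% of the 27025 genes with a window. A full site, taken as 2 half-sites at most 1 base apart with at most 1 mismatch in all, stood in 3 of the 10 genes and in 0.211% of all genes. The 250 bases before the start of these 3 genes are shown because they carry that full site, which is in capitals; they are written 5′ to 3′ along the gene's strand.
Cdkn1a, chr17:29090729-29090978 (+): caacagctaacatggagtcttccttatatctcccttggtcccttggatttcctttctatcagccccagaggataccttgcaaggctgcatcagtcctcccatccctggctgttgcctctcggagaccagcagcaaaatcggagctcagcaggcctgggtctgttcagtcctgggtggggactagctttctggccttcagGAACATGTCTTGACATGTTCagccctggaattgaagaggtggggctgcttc
Ccng1, chr11:40755287-40755536 (-): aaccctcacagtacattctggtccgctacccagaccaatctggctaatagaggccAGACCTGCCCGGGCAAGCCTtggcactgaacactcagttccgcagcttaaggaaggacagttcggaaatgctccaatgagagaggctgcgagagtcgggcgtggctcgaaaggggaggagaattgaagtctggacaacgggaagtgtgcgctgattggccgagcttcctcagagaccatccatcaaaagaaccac
Bax, chr7:45466899-45467148 (-): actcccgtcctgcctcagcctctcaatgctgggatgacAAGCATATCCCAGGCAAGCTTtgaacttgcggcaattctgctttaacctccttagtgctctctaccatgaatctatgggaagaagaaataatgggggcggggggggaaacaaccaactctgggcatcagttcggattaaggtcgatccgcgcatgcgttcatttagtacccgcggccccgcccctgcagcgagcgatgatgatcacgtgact
The first base of the capitals lies at position -51 from the start in Cdkn1a, -195 in Ccng1 and -212 in Bax, and the 2 half-sites touch in Cdkn1a and Ccng1 and are 1 base apart in Bax. In Cdkn1a the window belongs to the most upstream start, and the same site lies 2841 bases before the start of a further annotated transcript. Cdkn1a and Bax were higher in domes than in suspension and Ccng1 was lower there, so the 3 genes with a full site in this window did not share a direction. A match describes the letters of the window, not binding by p53.

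Values are given as CPM, the count per 1000000 counts of a library, scaled by trimmed mean of M-values (TMM) factors within each table, and a gene was called where its adjusted p from edgeR's quasi-likelihood test, over all genes tested, was below 0.05. Library totals ran from 1776490 to 14761853 counts in domes and suspension, from 1486347 to 5532630 in the summed bulk libraries and from 1059002 to 11175868 in the single organoids. The bulk library of Set 4 at passage 11 had the lowest of the bulk totals, 1486347, where the other 5 held at least 3911719. The cholangiocyte markers, among them Krt19, Krt7, Epcam, Sox9, Spp1 and Cldn7, were all detected in every group, with a summed level of the list of 3440 to 9910 CPM. In the bulk tables some markers of other cells had no entry, which was taken as 0 in every group. These were Cps1 and Serpina1a of hepatocytes, Clec4f of macrophages, Cdh5, Kdr and Stab2 of endothelium and Dcn, Pdgfrb and Lrat of mesenchyme. The other genes of the lists were not all at 0, and the summed hepatocyte and macrophage lists reached 1150 and 93.1 CPM. Libraries of 1 group were separate cultures or separately picked organoids, and counts of any pair of them differed by more than counting noise.

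Culture in Matrigel domes, set against shaking suspension, moved the 10 genes both ways. Cdkn1a, Cdkn2a and Bax were higher in domes and Trp53, Mdm2 and Ccng1 were lower, while Cdkn2b, Bbc3, Phlda3 and Gdf15 did not pass the test. Thus 6 of 10 genes were called, where 29.8% of the 12699 genes tested were called. By direction, 3 of 10 were called higher, beside 15% of all genes, and 3 of 10 lower, beside 14.7%. The median log2 fold change of the 10 genes was 0.51, and that of all genes was -0.04.

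Among the cell cycle inhibitors, Cdkn1a stood at 263, 985 and 407 CPM in domes 1, 2 and 3 and at 102, 131 and 113 CPM in the suspension cultures of the same numbers. Every dome exceeded every suspension culture, and dome 2 was far above the other two. The difference was 2.25 on the log2 scale (SE 0.42, adjusted p = 0.00499, n = 3 each), 4.76-fold, and 1.53 without dome 2 (adjusted p = 0.00249). Cdkn2a stood at 18, 21.3 and 19.8 CPM in domes and at 4.21, 4.97 and 3.58 CPM in suspension. The domes lay close together, and each was more than 4 times its suspension partner, with ratios of 4.29, 4.28 and 5.53. The log2 difference was 2.22 (SE 0.25, adjusted p = 0.000817). Cdkn2b, next to Cdkn2a on chromosome 4, was 73.6, 79.9 and 34.6 CPM in domes and 38.1, 42.3 and 43.9 CPM in suspension. Dome 3 lay below all 3 suspension cultures, so the groups overlapped, and the log2 difference of 0.60 (95% interval -0.18 to 1.38, adjusted p = 0.13) passed without dome 3 (0.86, adjusted p = 0.0115).

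Among the genes of apoptosis, Bax, whose product permeabilises the outer mitochondrial membrane, was 157, 218 and 306 CPM in domes and 114, 92 and 101 CPM in suspension, a log2 difference of 1.14 (SE 0.25, adjusted p = 0.00913). All domes lay above all suspension cultures. Bbc3 was 11, 11 and 8.8 CPM in domes and 6.31, 4.97 and 7.78 CPM in suspension, and although these ranges did not overlap, the log2 difference of 0.67 (95% interval -0.08 to 1.42) had an adjusted p of 0.0849. These Bbc3 values rest on as few as 15 counts in a library.

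Trp53 itself was lower in domes, at 33, 27.1 and 49.5 CPM against 72.8, 59.6 and 71.4 CPM in suspension (log2 difference -0.90, SE 0.24, adjusted p = 0.0189). Mdm2, whose product restrains p53, had 22.7, 16.9 and 22 CPM against 33.9, 32.6 and 37.8 CPM (-0.74, SE 0.20, adjusted p = 0.022). Ccng1 had 108, 75.5 and 69.3 CPM against 142, 135 and 147 CPM (-0.73, SE 0.21, adjusted p = 0.026). In all 3 genes no dome reached the level of any suspension culture. These 3 calls were less firm than those of the genes that rose: Trp53 was lost without dome 1 (adjusted p = 0.0513), suspension 1 (0.0765) or suspension 3 (0.0739), Mdm2 without suspension 1 (0.0747), 2 (0.0623) or 3 (0.0959), and Ccng1 without dome 3 (0.0597) or suspension 1 (0.0897), 2 (0.0719) or 3 (0.0928). Those fits held no block. With the library number as a replicate block and all libraries, the adjusted p was 0.00681 for Trp53, 0.0208 for Mdm2 and 0.0159 for Ccng1. Phlda3 ranged from 118 to 172 CPM in domes and from 121 to 134 CPM in suspension, and Gdf15 from 9.53 to 13.5 and from 6.82 to 10.3 CPM, with adjusted p of 0.617 and 0.276. The groups did not overlap in 7 of the 10 genes, beside 47.4% of all genes.

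**Figure D1:**
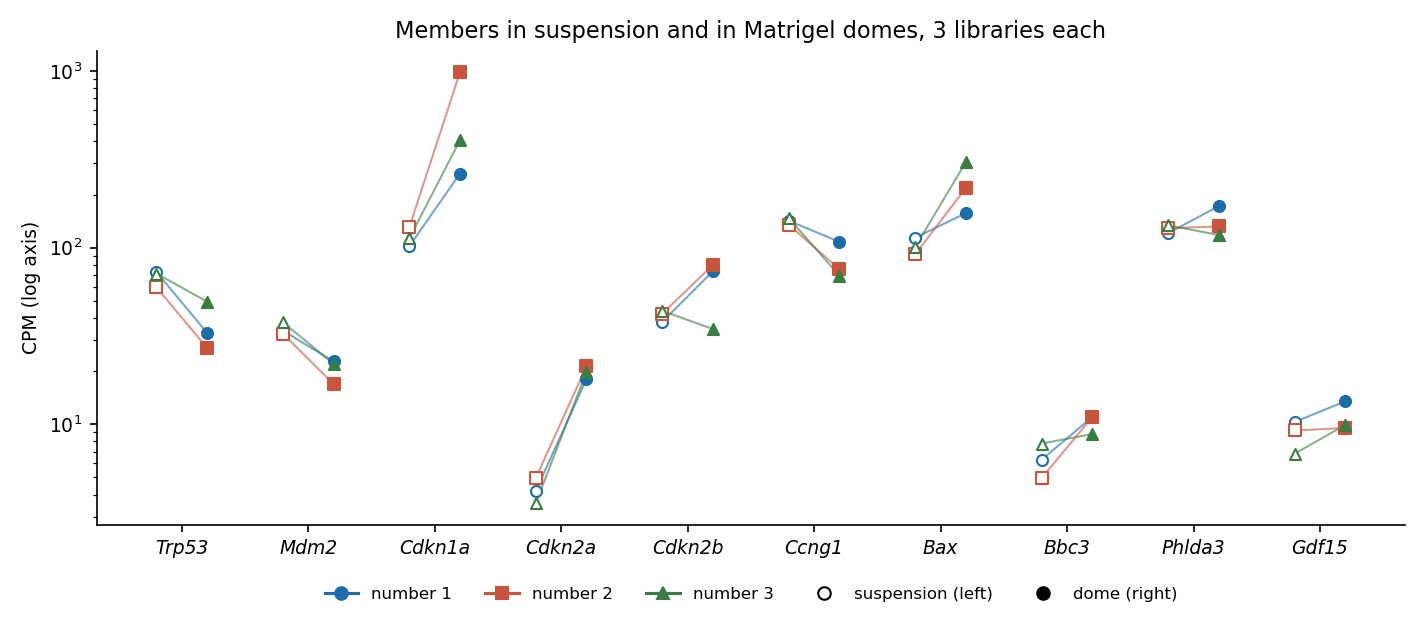
Level of each of the 10 genes in suspension (open symbols, left) and domes (filled symbols, right), in CPM on a log axis, with lines joining libraries of the same number (n = 3 each). Cdkn1a, Cdkn2a and Bax rise in all 3 lines, with Cdkn2a from 3.58 to 4.97 CPM up to 18 to 21.3 CPM, while Trp53, Mdm2 and Ccng1 fall in all 3.

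The neighbouring lists of the pathway gave this picture of domes. Of the other p53 targets tested 30.8% were called, near the 29.8% of all genes. The share was 54.5% of the p53 regulators and 23.8% of the CDK inhibitor and RB list. It was 40% of the BCL-2 family and caspases and 56.2% of the secreted factors. Of 39 other p53 targets tested, 8 were higher and 4 lower (median log2 fold change -0.22); the 3 largest changes were Cd82, a tetraspanin of the cell surface (2.53, SE 0.25, adjusted p = 0.000701), Mdm4, the partner of Mdm2 that restrains p53 (-1.86, adjusted p = 0.00595), and Pmaip1, the pro-apoptotic Noxa (1.80, adjusted p = 0.0249). Of 22 genes that regulate p53, 11 were lower and 1 higher (median -0.95), led by the DNA damage kinases Atr (-2.84, adjusted p = 0.00535) and Chek1 (-2.60, adjusted p = 0.00302), and by Mdm4, which is on both lists. Of 21 genes of the CDK inhibitor and RB list, 5 were lower and none was higher (median -0.40), with Ccne2 (-3.10), Ccne1 (-2.38), both cyclins of S-phase entry, and Cdk6 (-1.57) changing most. Of 20 genes of the BCL-2 family and caspases, 5 were higher and 3 lower (median 0.19), among them Pmaip1, Bik, another pro-apoptotic gene (1.51), and the anti-apoptotic Bcl2 (-1.59). Of 16 secreted factors tied to senescence, 2 were higher and 7 lower (median -0.44), with the chemokines Ccl2 at -4.49 and Ccl5 at 4.06. Some of the genes named were near 0 in domes. Mean levels there were 0.595 CPM for Atr, 0.839 for Chek1, 0.519 for Ccne2 and 0.564 for Bcl2. In suspension these means were 5.06, 4.76, 4.55 and 2.63 CPM. Domes 2 and 3 were the shallowest of these libraries, at 1885591 and 1776490 counts, and 3 counts there would be 2.2 and 1.65 CPM.

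The domes also differed in growth and stress genes. Of the proliferation markers 90% were called and of the integrated stress response genes 53.8%, beside 29.8% of all genes. Of the cholangiocyte markers 57.1% were called, and of the hepatocyte markers 25%. Of 10 proliferation markers 9 were lower in domes and none was higher, with a median of -1.37 and a summed level of 234 to 490 CPM against 760 to 907 CPM, and Mki67, Top2a and Ccna2 fell by 2.26, 2.06 and 1.76 on the log2 scale. Of 13 genes of the integrated stress response, a program set off when translation initiation is restrained, 7 were higher and none was lower (median 1.10), led by Nupr1 (3.23), Ddit3 (2.86) and Ddit4 (2.33). Of 7 cholangiocyte markers 3 were higher and 1 lower (median -0.09; Krt19 2.00, Spp1 -1.61, Cldn7 0.98), and Apoa1, an apolipoprotein, was the one hepatocyte marker called of 4 tested (58.4 ± 86.9 against 2.21 ± 0.626 CPM, SD, n = 3 each; median of the list 0.27), with a summed level of that list of 306 to 841 CPM in domes and 256 to 638 CPM in suspension. Of 2 macrophage markers tested, Cd68, which lysosomes of other cells also hold, was higher (3.06, with a list median of 0.97). The summed macrophage list was 6.93 to 93.1 CPM in domes and 3.37 to 9.22 CPM in suspension, and Clec4f and Tyrobp had no entry. The mitochondrial share of counts was 1.64 to 2.02% in domes and 3.72 to 4.02% in suspension. The part of these differences in those of the 10 genes was not tested, and in bulk RNA fewer cells of a type and less RNA per cell cannot be told apart.

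The second comparison asked how long culture changed the same organoid sets. At passage 11, Cdkn2a and Bax were higher than at passage 4, and Cdkn1a, Cdkn2b, Bbc3 and Gdf15 were lower. Trp53, Mdm2, Ccng1 and Phlda3 did not pass the test, which did not use the pairing by set. Thus 6 of 10 genes were called, beside 20.3% of the 13738 genes tested, with 2 of 10 higher (10.1% of all genes) and 4 of 10 lower (10.1% of all genes). The median log2 fold change of the 10 genes was -0.22, and that of all genes was -0.05.

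Cdkn2a changed unevenly among sets. At passage 4 it stood at 8.04 CPM in Set 1, 8.25 in Set 3 and 8.62 in Set 4, and at passage 11 at 52.7, 54.3 and 11.4 CPM. Sets 1 and 3 thus rose 6.56-fold and 6.58-fold, and Set 4, from 18 counts in the shallow passage 11 library, stood 1.33-fold above its own passage 4 value. All passage 11 libraries still lay above all passage 4 libraries, and the log2 difference was 2.32 (SE 0.42, adjusted p = 0.00534), or 2.70 without Set 4 (adjusted p = 0.000507). Whether Set 4 differed from the other sets cannot be tested with 1 pair of libraries. Cdkn2b moved the other way, from 125, 99.2 and 92 CPM in Sets 1, 3 and 4 to 74.3, 66.8 and 29.9 CPM (-0.84, SE 0.26, adjusted p = 0.0463). The 2 neighbours on chromosome 4 therefore took opposite directions in Sets 1 and 3. In Set 4 the rise of Cdkn2a was no larger than the gap between technical replicates. Those of its passage 11 library read 10.6 and 14.1 CPM before TMM scaling, 1.33 times apart. Cdkn1a fell from 351, 227 and 198 CPM to 188, 152 and 96 CPM (-0.82, SE 0.26, adjusted p = 0.0488), with no overlap between passages.

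The calls of Cdkn1a and Cdkn2b lay close to the threshold without the pairing by set, while with the set as a replicate block the adjusted p was 0.00315 for Cdkn1a and 0.00737 for Cdkn2b. Without the block, Cdkn1a was lost without Set 1 at passage 4 (adjusted p = 0.157), Set 3 at passage 4 (0.0757), Set 3 at passage 11 (0.112) or Set 4 at passage 11 (0.11), and Cdkn2b without Set 1 (0.129), Set 3 (0.0901) or Set 4 (0.0645) at passage 4 or Set 3 at passage 11 (0.0786). The direction of both was the same in every one of these fits.

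Of the 2 genes of apoptosis, Bax rose and Bbc3 fell. Bax went from 420, 353 and 327 CPM in Sets 1, 3 and 4 to 833, 628 and 422 CPM, a log2 difference of 0.78 (SE 0.22, adjusted p = 0.0331). The increase was 1.98-fold in Set 1, 1.78-fold in Set 3 and 1.29-fold in Set 4. With the set as a replicate block the adjusted p of Bax was 0.00736. Without the block, the call was lost without Set 1 (adjusted p = 0.086) or Set 3 (0.0837) at passage 11 and without Set 3 (0.0969) or Set 4 (0.101) at passage 4. Bbc3 went from 57.5, 32.8 and 28.7 CPM to 20.9, 16.5 and 15.3 CPM (-1.14, SE 0.27, adjusted p = 0.0153, and 0.00211 with the block). Without the block, it lost its call without Set 3 at passage 11 (0.0615). Every passage 11 library lay below every passage 4 library.

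Gdf15 had the steepest decline of the 10 genes. It stood at 440, 154 and 87.5 CPM at passage 4 and at 48.7, 32.2 and 22.9 CPM at passage 11, so that it dropped 9.04-fold in Set 1, 4.77-fold in Set 3 and 3.82-fold in Set 4. Set 1 was highest at both passages and Set 4 lowest. The log2 difference was -2.67 (SE 0.52, adjusted p = 0.00727), and -1.76 without Set 1 at passage 4 (adjusted p = 0.00916).

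Trp53 was 94.4, 74.7 and 76.4 CPM at passage 4 and 112, 98.6 and 104 CPM at passage 11, a difference of 0.36 (95% interval -0.03 to 0.75, adjusted p = 0.0981) that passed without Set 1 at passage 4 (0.47, adjusted p = 0.0451). Mdm2 was 59.4, 37.8 and 38.4 CPM at passage 4 and 37.5, 26.8 and 18.4 CPM at passage 11 (-0.66, adjusted p = 0.0923). It was lower at passage 11 in each set, and it was called with the set, which is the mouse, as a replicate block (-0.70, adjusted p = 0.0154). Mdm2 was also called without Set 1 at passage 11 (-0.92, adjusted p = 0.0422), with no filter on low counts (-0.65, adjusted p = 0.00639) and with counts thinned to the smallest total (-0.98, adjusted p = 0.0121). Ccng1 and Phlda3 had log2 differences of 0.23 (adjusted p = 0.355) and 0.21 (adjusted p = 0.399), and their passages overlapped. The groups did not overlap in the other 8 genes, beside 39.5% of all genes. Between technical replicates of a library, the larger value exceeded the smaller by at most 1.43 times in any of the 10 genes.

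**Figure D2:**
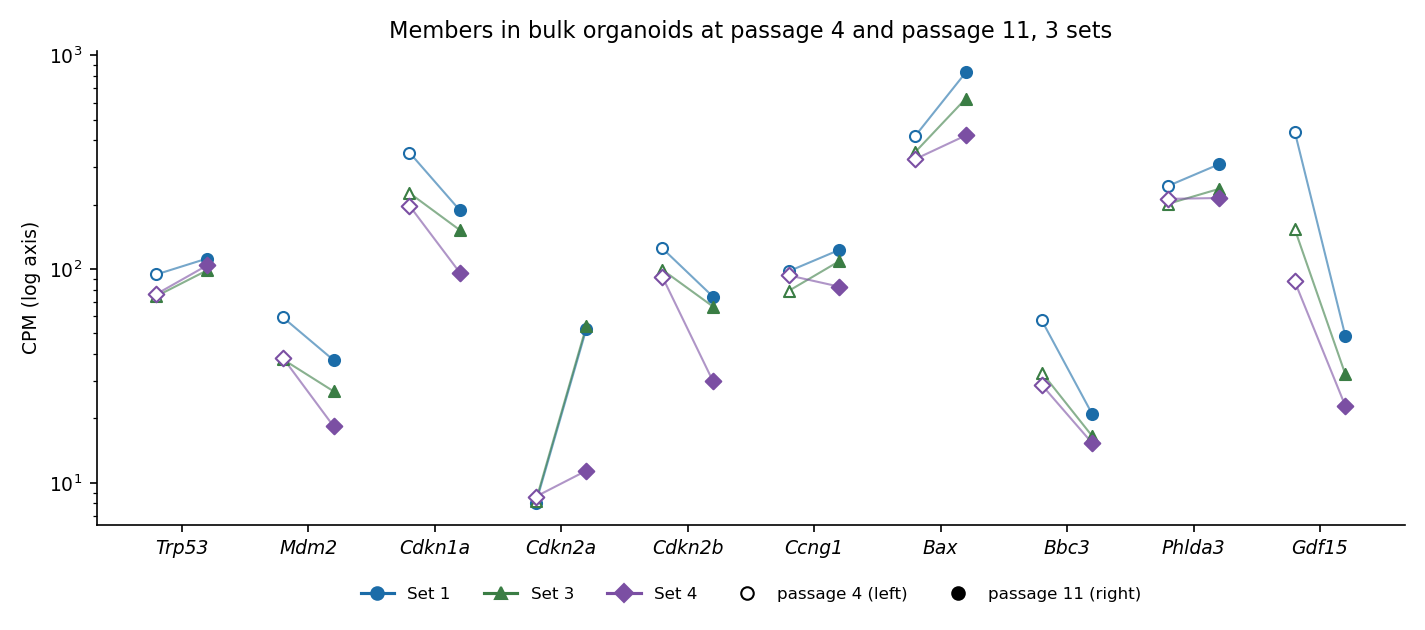
Level of each of the 10 genes in bulk organoids at passage 4 (open symbols, left) and passage 11 (filled symbols, right), in CPM on a log axis, with lines joining the libraries of a set (Sets 1, 3 and 4). Cdkn2a climbs from about the same level in all sets to 52.7 and 54.3 CPM in Sets 1 and 3 but to 11.4 CPM in Set 4, and Gdf15 falls in every set.

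**Figure D3:**
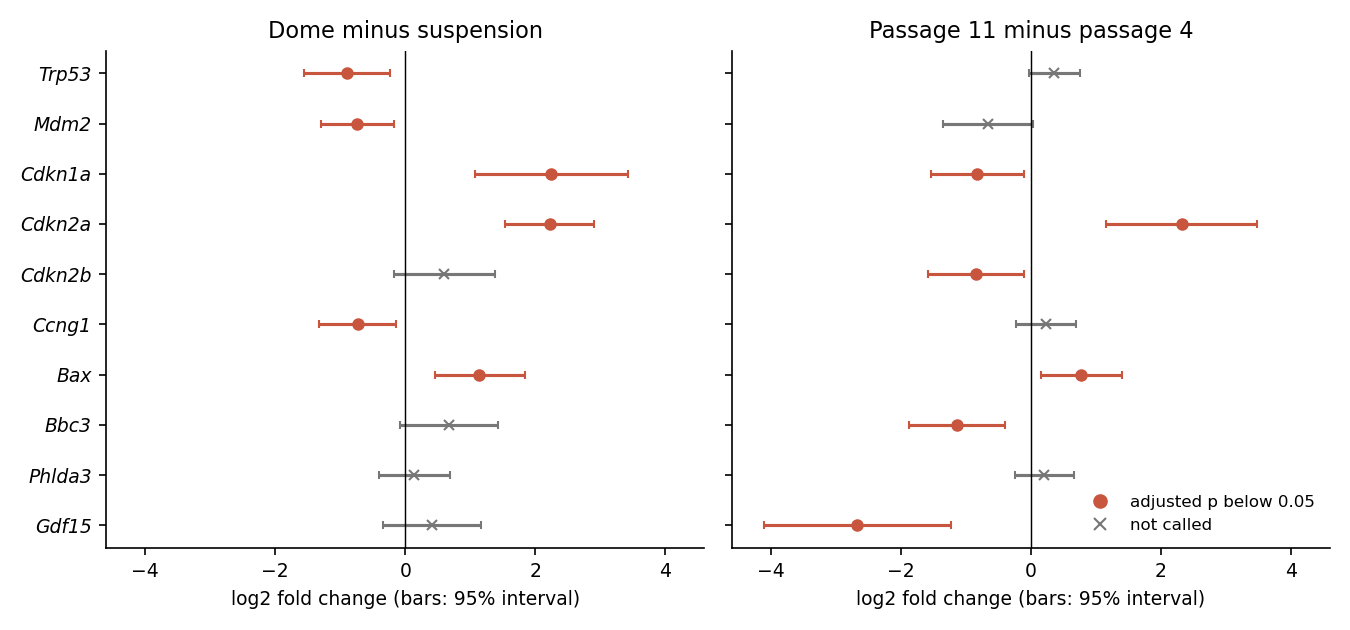
Log2 fold change of each gene with its 95% interval, domes minus suspension (left) and passage 11 minus passage 4 (right). Filled points passed an adjusted p of 0.05 and crosses did not; Cdkn2a is called higher in both panels (2.22 and 2.32), while Cdkn1a is called higher in domes (2.25) and lower at passage 11 (-0.82).

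Between passages, 27.5% of the other p53 targets and 18.2% of the p53 regulators were called, beside 20.3% of all genes. The share was 47.6% of the CDK inhibitor and RB list. It was 28.6% of the BCL-2 family and caspases and 52.6% of the secreted factors. Of the 40 other p53 targets, 2 were higher and 9 lower at passage 11 (median -0.12). The largest changes were those of Ak1, an adenylate kinase that was near 0 at passage 4 (2.19 ± 0.28 against 0.192 ± 0.332 CPM, SD, n = 3 each, adjusted p = 0.0159), Gadd45a, which takes part in growth arrest and DNA repair (-1.93, adjusted p = 0.0206), and Polk, a translesion polymerase (-1.84, adjusted p = 0.0168). Of 22 p53 regulators, 2 were higher and 2 lower (median -0.08), among them Mdm4 (-1.71), the acetyltransferase Ep300 (-1.57) and Chek1 (1.38). Of 21 genes of the CDK inhibitor and RB list, 10 were higher and none was lower (median 0.68). Led by Ccne1 (2.02), E2f1 (1.82) and Cdkn3 (1.68), these are a cyclin and a transcription factor of S-phase entry and a phosphatase of the cell cycle; the list thus holds genes that drive the cycle as well as inhibitors. Of 21 genes of the BCL-2 family and caspases, 3 were higher and 3 lower (median -0.09), with Bik (-1.41), Apaf1, which activates caspases (-1.24), and Pmaip1 (-1.19) changing most. Of 19 secreted factors tied to senescence, 10 were lower and none was higher (median -1.54), with the growth factor Areg at -3.29, Ccl5 at -2.79 and the cytokine Csf2 near 0 at passage 11 (0.0748 ± 0.13 against 1.64 ± 0.811 CPM).

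Proliferation markers ran opposite to domes. Of these markers 90% were called and of the integrated stress response genes 38.5%, beside 20.3% of all genes. Of the cholangiocyte markers 14.3% were called, and of the hepatocyte markers 25%. At passage 11, 9 of 10 were higher and none was lower (median 1.47), with Rrm2, Ccna2 and Ccnb1 at 3.01, 2.41 and 1.82, and their summed level was 808 to 1210 CPM against 315 to 354 CPM at passage 4. Of 13 genes of the integrated stress response 5 were lower and none was higher (median -0.96), with Nupr1, Ddit3 and Atf3 at -3.35, -2.86 and -2.30. Of the cell type lists, 1 of 7 cholangiocyte markers (Krt7, 0.46; median 0.23), 1 of 4 hepatocyte markers (Apoa1, 30.8 ± 47.6 against 1.36 ± 0.662 CPM; median 0.58) and no macrophage or endothelial gene of the 1 tested each was called. The summed hepatocyte list was 788 to 1150 CPM at passage 11 and 308 to 734 CPM at passage 4, and the macrophage list 2.58 to 4.49 and 4.61 to 18.4 CPM. The mitochondrial share was 0.895 to 1.71% at passage 11 and 1.99 to 2.63% at passage 4. The part of these differences in those of the 10 genes was not tested.

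In single organoids the 10 genes could be followed from one organoid to the next. Across the 35 organoids Cdkn1a ranged from 112 to 672 CPM, Cdkn2a from 4.45 to 35.8, Mdm2 from 20.5 to 80, Ccng1 from 48.8 to 192, Trp53 from 61.3 to 183, Phlda3 from 61.3 to 186, Cdkn2b from 15.7 to 51.1, Bbc3 from 5.96 to 17.9 and Bax from 269 to 526 CPM. Gdf15 was barely detected, at 0 to 4.4 CPM from 0 to 12 counts. It was 0 in organoids 2 and 3 of Set 4, where 3 counts would be 1.39 and 2.23 CPM, so that a level up to there is allowed. In bulk libraries, which were made from total RNA and normalised in separate tables, Gdf15 stood at 6.82 to 10.3 CPM in suspension, 9.53 to 13.5 CPM in domes and 22.9 to 440 CPM in the passage experiment.

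Between sets, few differences held against the spread of organoids, and the sets overlapped for every gene. Each set came from 1 mouse and the organoids were the replicates of the test. The p-values between sets therefore measure against the spread of organoids and say nothing of other mice. Mdm2 and Cdkn1a were higher in Set 1 than in Set 4. Mdm2 had a lowest, median and highest value of 25.1, 45 and 80 CPM in Set 1 and 20.5, 29.5 and 42.1 CPM in Set 4 (log2 difference 0.70, SE 0.18, adjusted p = 0.00895). Cdkn1a had 244, 392 and 672 CPM in Set 1 and 112, 237 and 419 CPM in Set 4 (0.75, SE 0.22, adjusted p = 0.0165). These 2 calls compare with 20% of all genes called between these sets. Phlda3 and Bbc3 were lower in Set 2 than in Set 4. Phlda3 had 61.3, 86.8 and 150 CPM in Set 2 and 90.3, 125 and 186 CPM in Set 4 (-0.49, SE 0.15, adjusted p = 0.0319), and Bbc3 5.96, 7.67 and 8.64 CPM against 6.45, 10.6 and 14.4 CPM (-0.48, SE 0.16, adjusted p = 0.0427). Between Sets 2 and 4, 12.4% of all genes were called, and limma-voom and DESeq2 each called 1 of the 10 genes, without Bbc3 (adjusted p = 0.0587 and 0.0566). Phlda3 in turn lost its call with counts thinned to the smallest total (adjusted p = 0.0507), all 42 organoids (0.106) and a fit of these 2 sets only (0.0538).

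The other 4 comparisons between sets gave no call among the 10 genes with edgeR. All genes were called at 14.3% between Sets 1 and 2, 9.43% between Sets 1 and 3, 3.93% between Sets 2 and 3 and 11.6% between Sets 3 and 4. At an unadjusted p below 0.05, 2, 2, 1 and 5 of the 10 genes passed in these comparisons, beside 28.3%, 21.5%, 13% and 30.3% of all genes. limma-voom called none of the 10 in all 4, and DESeq2 called none but 2 between Sets 3 and 4, Bax (-0.44, adjusted p = 0.0277) and Phlda3 (-0.57, adjusted p = 0.0318). For Cdkn2a, the set medians were 21.7, 21, 16.3 and 14.1 CPM in Sets 1 to 4, and no pair of sets was called. Set 1, the set kept longest, and Set 4 differed in Cdkn2a by 0.27 on the log2 scale (adjusted p = 0.576), and Set 1 and Sets 2 and 3 by -0.23 (adjusted p = 0.659) and 0 (adjusted p = 0.996), with an SE of 0.28 to 0.34. Trp53 medians were 98.1, 116, 148 and 94.3 CPM and no pair was called; between Sets 3 and 4 the log2 difference was 0.50 (95% interval 0.09 to 0.91, adjusted p = 0.0972), and it was called in a fit of these 2 sets only (0.51, adjusted p = 0.0276).

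**Figure D4:**
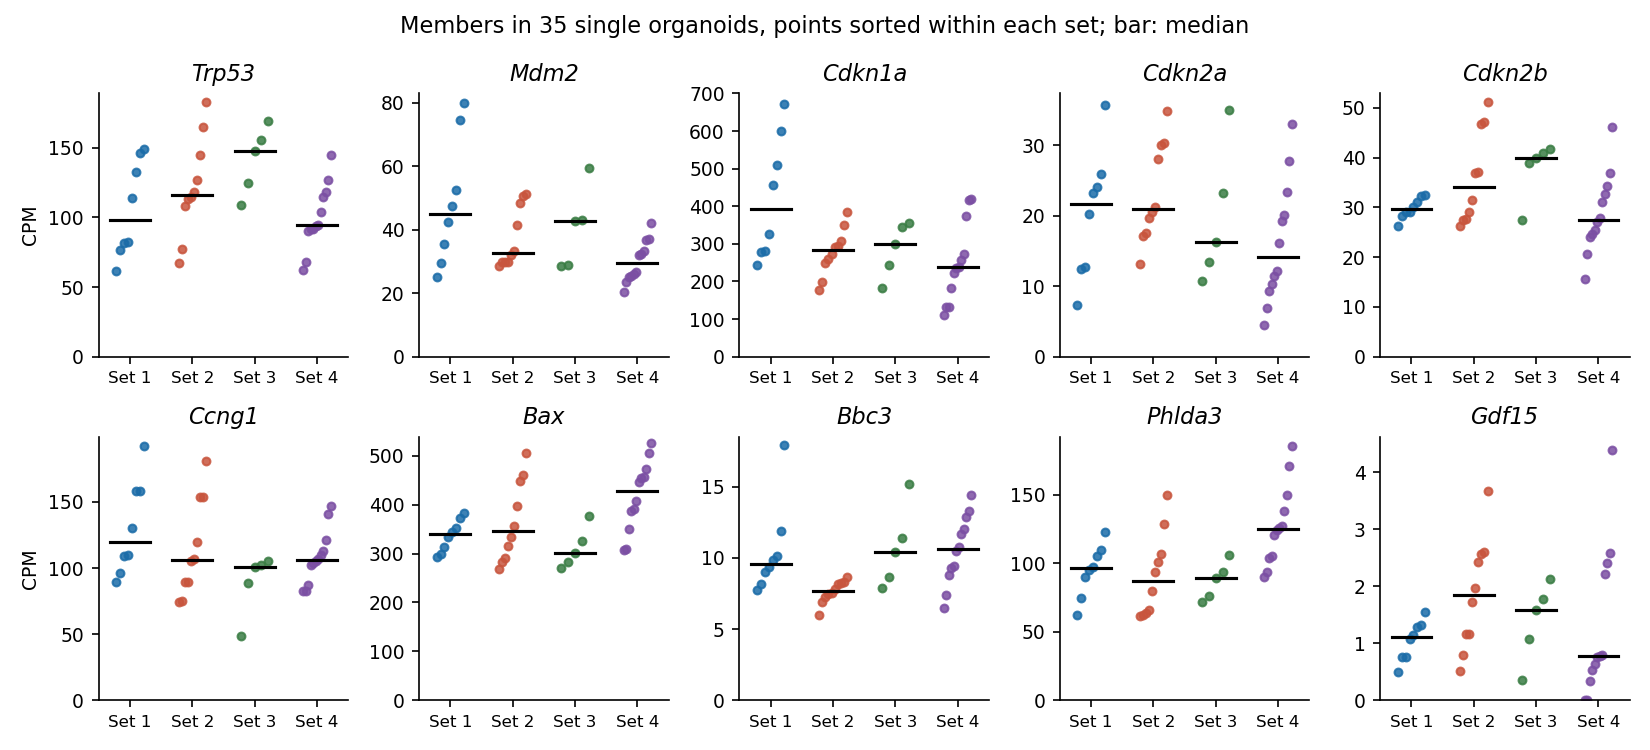
Level of each of the 10 genes in 35 single organoids, in CPM on linear axes from 0, with 1 point per organoid sorted within Sets 1 to 4 and a bar at the median. The sets overlap in every panel; Cdkn1a spans 112 to 419 CPM within Set 4 alone, while Cdkn2b spans 26.2 to 32.4 CPM in Set 1.

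Organoids of 1 set, which share a mouse and a passage, differed among themselves to unequal degrees in the 10 genes. By the study's text they were picked from different wells, so differences between wells are part of this spread. The SD of log2 CPM of Cdkn2a was 0.73, 0.44, 0.66 and 0.83 in Sets 1 to 4, where the median over all genes was 0.50, 0.54, 0.40 and 0.44, so that it varied more than the median gene in Sets 1, 3 and 4. In Set 4 the highest Cdkn2a value was 7.43 times the lowest, which rested on 6 counts, and 4.82 times the next lowest; the SD of Set 4 without the lowest organoid was 0.70. With all organoids of Set 4, the coefficient of variation of 54.1% compares with 13.9% from counting alone at the mean count. The counts ran from 6 to 139, so counting noise was larger than this in the organoids with few counts. The median gene was not matched to Cdkn2a in level. Cdkn1a had an SD of 0.56, 0.34, 0.40 and 0.64, from at least 177 counts in each organoid, and counting alone gives a coefficient of variation of 2.53 to 3.87% for it. Bax, by contrast, had an SD of 0.14, 0.32, 0.19 and 0.26, below the median gene in each set. Bax had at least 359 counts in each organoid, and the median gene was not matched to it in level. Its coefficient of variation of 9.81 to 22.7% still exceeded the 2.72 to 3.53% from counting alone. Cdkn2b stood out in Set 1, where 8 organoids lay between 26.2 and 32.4 CPM (SD 0.11), with a coefficient of variation of 7.12%, no larger than the 9.33% that counting alone gives.

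Within sets, Cdkn1a moved together with Cdkn2a, Ccng1 and Mdm2 and not detectably with the other 6 genes. Log2 CPM of each gene was centred on its set's mean, and Cdkn1a was set against 11 partners over 35 organoids, with two-sided permutation p-values from 100000 permutations within sets adjusted over the 11. Pearson's r with Cdkn2a was 0.62 (permutation, adjusted p = 0.00169) and Spearman's rho 0.66 (permutation, adjusted p = 0.000825). For Ccng1, r was 0.60 (permutation, adjusted p = 0.00099) and rho 0.63 (permutation, adjusted p = 0.000825), and for Mdm2, r was 0.59 (permutation, adjusted p = 0.00169) and rho 0.60 (permutation, adjusted p = 0.00147). Without the 2 organoids whose centred Cdkn1a lay farthest from the median, r was 0.63, 0.58 and 0.58 (n = 33). These values come from organoids of 4 mice, picked from different wells, and say nothing of other mice.

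The size of r varied between sets, and differences between sets were not tested. In Set 1 (n = 8) r was 0.79 for Cdkn2a, 0.89 for Ccng1 and 0.87 for Mdm2 (exact permutation p = 0.0237, 0.00618 and 0.00558). In Set 4 (n = 12) r was 0.66, 0.79 and 0.42 (permutation p = 0.0195, 0.00262 and 0.173), and in Set 2 (n = 10) it was 0.07, 0.22 and 0.37 (permutation p = 0.838, 0.544 and 0.29). No r was computed for Set 3 alone, which had 5 organoids. With all 42 organoids of the table, including 7 that the study left out, r fell to 0.57, 0.52 and 0.37, and Mdm2 no longer passed (permutation, adjusted p = 0.0744). Cdkn1a had an r of 0.17 with Trp53, 0.26 with Cdkn2b, 0.16 with Bbc3, 0.09 with Phlda3, 0.05 with Bax and 0.18 with Gdf15, with adjusted permutation p of 0.473 to 0.782. Its r with Mki67, a marker of cycling cells, was 0.12 (permutation, adjusted p = 0.711), and with the log10 library total -0.08 (permutation, adjusted p = 0.758).

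When all 13924 other genes with a distinct symbol were ranked by their r with Cdkn1a over the same 35 organoids, as a description without a test, the first 5 were Zmat3 (0.68), Epha4 (0.67), Abcc4 (0.67), Inka2 (0.66) and Sesn2 (0.65). Zmat3, an RNA-binding protein, and Sesn2, a stress sensor that restrains mTORC1, are on the list of other p53 targets, and Epha4 is an ephrin receptor and Abcc4 an efflux transporter. Cdkn2a, Ccng1 and Mdm2 ranked 10, 11 and 15. The remaining members lay far behind, from rank 2426 for Cdkn2b to 6612 for Bax. Of 39 other p53 targets measured, 15 stood within the top 10% of genes and 6 within the top 100, and their median r was 0.23, that of all genes 0.03. This list was chosen with earlier results of these data known, so these counts are a description only. All points share their library between the genes compared.

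**Figure D5:**
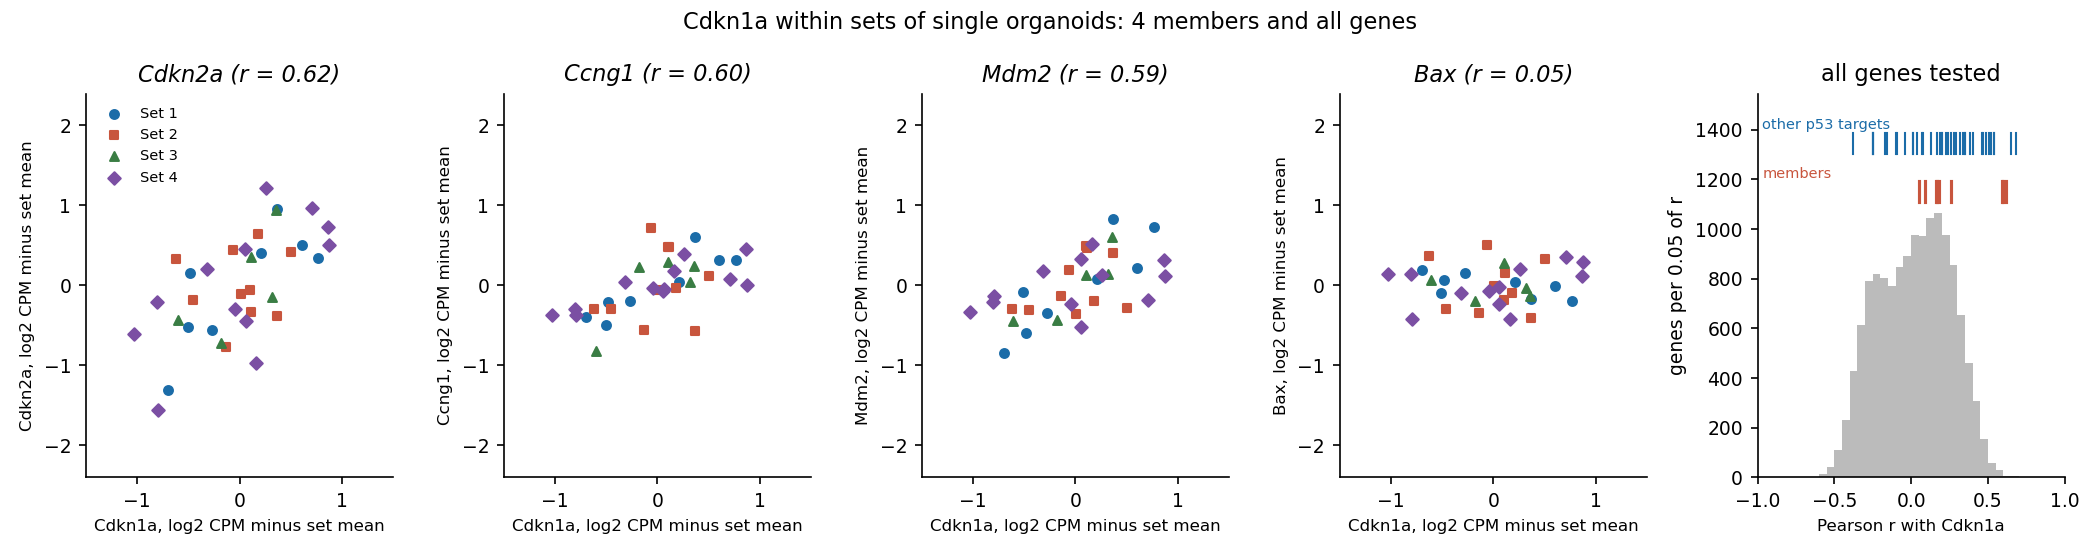
Left 4 panels: log2 CPM minus the set mean of Cdkn2a, Ccng1, Mdm2 and Bax (y) against that of Cdkn1a (x) in 35 single organoids, coloured by set; r is 0.62, 0.60, 0.59 and 0.05. Right panel: number of genes per 0.05 of r with Cdkn1a, with ticks for the 9 other members and 39 other p53 targets, 3 of the members standing at the far right.

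Of the other lists in the single organoids, that of other p53 targets had 0 to 7 genes called in a comparison. Over the 6 comparisons, 0 to 4 of 39 were called higher and 0 to 4 lower, with medians of -0.07 to 0.26. Between Sets 2 and 4 these calls were 17.9% of the list, beside 12.4% of all genes, between Sets 1 and 2 15.4%, beside 14.3%, and between Sets 1 and 4 10.3%, beside 20%. The largest changes in these comparisons were those of Sulf2, a sulfatase of heparan sulfate (-2.75 in Set 1 against Set 4, adjusted p = 1.41e-09), and Gadd45a (-1.64 in Set 1 against Set 2, adjusted p = 0.000541). Between Sets 1 and 3 2.56% of the list was called, beside 9.43% of all genes. The share was 0% between Sets 2 and 3, beside 3.93%, and 7.69% between Sets 3 and 4, beside 11.6%. Of 22 p53 regulators at most 2 were called in either direction, and of 21 genes of the BCL-2 family and caspases at most 2, with Bcl2 at -2.14 and -1.77 in Set 1 against Sets 3 and 4. Over all comparisons, 0 to 13.6% of the first list and 0 to 19% of the second were called, beside 3.93 to 20% of all genes. The CDK inhibitor and RB list had its most calls between Sets 1 and 4, 5 higher and 6 lower of 21 (median -0.35), where E2f2 was 1.36, Cdkn1c -1.23 and E2f1 -1.21. They made up 52.4% of the list, beside 20% of all genes. In the same comparison 8 of 10 proliferation markers were lower in Set 1 and none was higher (median -0.76). Their summed level was 406 to 1260 CPM in Set 1 and 774 to 1380 CPM in Set 4. The integrated stress response was lower in Set 1 than in Set 2 for 8 of 13 genes (median -0.95) and higher in Set 2 than in Set 4 for 11 of 13 (median 0.87), with Chac1, which degrades glutathione, at 1.70 in the second of these. Its calls were 61.5% and 84.6% of the list, beside 14.3% and 12.4% of all genes. Hepatocyte markers were higher in Set 1 than in Set 4 for 3 of 4 genes (median 1.74; Alb 2.94, Hnf4a 0.54, and Apoa1 with means of 1.08 and 0.0448 CPM), and the summed list was 551 to 2430 CPM in Set 1 and 504 to 2650 CPM in Set 4. Of 17 secreted factors tied to senescence, 8 were lower and 2 higher in Set 1 than in Set 2 (median -0.94), 9 lower and none higher than in Set 3 (median -1.12) and 3 lower and 2 higher than in Set 4 (median -0.13), with Ccl2 at -1.95 and -2.07 against Sets 2 and 3. In that order, 58.8%, 52.9% and 29.4% of the list were called, beside 14.3%, 9.43% and 20% of all genes. The part of these differences in those of Mdm2, Cdkn1a, Phlda3 and Bbc3 was not tested.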

How the data were processed

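The authors made 3′-end libraries with unique molecular identifiers, from total RNA of bulk cultures and from mRNA of single organoids whose input was set by Actb qPCR, and processed them with zUMIs (STAR, SAMtools 1.9 and featureCounts, by the submitters' processing notes and the methods) on mm10, with down-sampling. They deposited 3 tables of counts per gene, with 60 columns in all; the sources used here do not say if a count is a molecule or a read. From these counts, genes were kept with filterByExpr (min.count 3), scaled by TMM and tested with edgeR 4.0.16 (quasi-likelihood F-test, R 4.3.3) with Benjamini-Hochberg adjustment at 0.05, for the 4 sets in 1 fit and over their 6 comparisons together. limma-voom (limma 3.58.1), the method of the study, and DESeq2 1.42.0 were alternatives, beside other scaling, filters, thinned counts, a replicate block and left-out libraries. SE is the log2 fold change divided by the root of F, and 95% intervals use a t quantile with samples minus groups as degrees of freedom. These intervals are not those of the test, and some span 0 where its unadjusted p was below 0.05. Between passages this held for Trp53 (quasi-likelihood F-test, p = 0.0277), and in domes for Bbc3 (quasi-likelihood F-test, p = 0.0317). The test was checked on simulated counts. Symbols were matched by Ensembl identifier, and 24, 24 and 42 rows of the 3 tables had no symbol.

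Technical replicates were summed; their counts differed by 1.08 to 2.55 times counting noise (chi-square over its degrees of freedom). Same-numbered libraries of the 2 passages come from the same mouse, and dome and suspension libraries of a number deviated together from their group means (r = 0.133, 0.153 and 0.188 over genes; 0.098, 0.0283 and 0.0858 between passages). The 7 organoids left out by the study had 666660 to 1152914 counts. Genes named beside the 10 members are the 3 largest called changes of each list, and the 5 genes most correlated with Cdkn1a; some are not reported here. The members, the lists and these rules were chosen with earlier results of these data known. Totals per sample limit the precision of low genes: 3 counts, the limit allowed where a gene has 0, were 0.207 to 2.76 CPM, and this covers counting error only.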

Additional observations from a re-analysis of the deposited data

Results flagged for a closer look

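Of 30 groups of organoids tested for an outlying sample (10 genes in Sets 1, 2 and 3), 3 were flagged, where chance flags about 1 in 20. In Set 3 (n = 5), Ccng1 was 48.8 CPM in organoid 1, from 164 counts, and the next lowest organoid had 89 CPM. Also in Set 3, Cdkn2b was 27.4 CPM in organoid 3 and 39 CPM or more in the others. In Set 1 (n = 8), Bbc3 was 17.9 CPM in organoid 5, from 42 counts, and 11.9 CPM or less in the others.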

How the results depend on the processing

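No value of the 10 genes that was called in any fit changed direction under any alternative. The calls of Cdkn1a, Cdkn2a and Bax in domes and those of Cdkn2a and Gdf15 at passage 11 held under every alternative run. The replicate block gave 4019 called genes (6 of the 10) for domes against suspension and 2950 (7 of the 10) between passages, and beside Mdm2 at passage 11 changed no call among the 10 in either comparison.

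Between passages, 2784 genes were called as reported, 1772 with counts thinned to the smallest total, 1717 with technical replicate 1 only and 1460 without Set 4 at both passages, an alternative chosen after seeing the data. There Cdkn1a (adjusted p = 0.0619) and Cdkn2b (0.0505) lost their calls. Cdkn1a also lost its call with RLE size factors (0.0507) and, as did Cdkn2b (0.0574), with technical replicate 1 only. Leaving out 1 library at a time gave 1893 to 3837 called genes (3 to 6 of the 10) for domes against suspension, 3779 as reported, and 1552 to 2244 (2 to 6 of the 10) between passages. Leaving out a Set 3 organoid gave 803 to 1895 called genes (0 to 1 of the 10) between Sets 3 and 4, 1610 as reported. Without the filter on low counts the median of all genes moved to -0.26 in domes and -0.15 at passage 11.

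In single organoids, thinning left 1118 called genes for Sets 1 and 2, 754 for 1 and 3, 1638 for 1 and 4, 353 for 2 and 3, 1022 for 2 and 4 and 970 for 3 and 4, where 1988, 1314, 2780, 548, 1722 and 1610 were called as reported. All 42 organoids gave 252, 977 and 716 for Sets 2 and 3, 2 and 4, and 3 and 4. Adjustment within each comparison gave 180 for Sets 2 and 3. A fit of the 2 sets only gave 61 for Sets 2 and 3 and 2839 for Sets 3 and 4; for Sets 2 and 3, 31.1% of its calls were higher in Set 2, and 52.2% as reported. Of the 10 genes, between Sets 2 and 4 (2 as reported) 1 was called with no filter, limma-voom, DESeq2, the replicate block and the fit of the 2 sets only, and 0 with thinning and all 42 organoids. Between Sets 1 and 4 (2 as reported) 1 was called with the block and 4 with the fit of the 2 sets only. Between Sets 3 and 4 (0 as reported) 1 was called with RLE size factors and min.count 10, 2 with DESeq2 and 3 with the fit of the 2 sets only. Organoid numbers are only names: over 35 same-numbered pairs r ran from -0.31 to 0.345, and in 7 the organoid correlated best with its own number. With these numbers as a replicate block, 1584, 897 and 731 genes were called for Sets 1 and 4, 2 and 4, and 3 and 4. The number of partners correlated with Cdkn1a stayed at 3 with a prior count of 2 and thinned counts and was 2 with all 42 organoids. Gdf15 in single organoids, with at most 12 counts, was too shallow to compare.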
